A study of Mus musculus with 30 samples.

Results

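The genes described here are 9 genes of fatty acid oxidation and of the response to PPAR receptors, *Cpt1a*, *Slc25a20*, *Acadvl*, *Acadl*, *Acadm*, *Hadha*, *Hadhb*, *Pdk4* and *Angptl4*, out of 50833 genes in the count table. They were selected by name as one functional group, with earlier results of these libraries known, and all 9 were found. Which values chose them is not recorded, so their values in C59 against DMSO are given as a description, without p-values, and nothing rests on whether they passed a threshold.

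PolyA RNA of mouse forelimb buds was sequenced in 30 libraries. Females carrying wild-type Swiss Albino embryos were injected at E10.5 with DMSO in saline or with C59. Buds were collected 1, 6, 12, 18 or 24 h later. C59 (Wnt-C59) inhibits the enzyme porcupine, which WNT ligands need for secretion. Besides DMSO, its injection mix held methylcellulose and Tween-20, which the paper does not list for the control. Effects of C59 and of the unlike carriers therefore cannot be told apart. Each of the 10 groups had 3 replicates, each made from 1 pair of forelimb buds of embryos of either sex. The drug reached the whole embryo and the mother, and whole buds were sequenced, so fewer cells of a type and less RNA per cell cannot be told apart.

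Totals ran from 18188636 to 38974885 counts per library. *Axin2*, a direct target of canonical WNT signalling, had log2 fold changes in C59 of -1.97 ± 0.06 at 6 h, -1.45 ± 0.06 at 12 h (± SE, 3 against 3 libraries) and -0.08 at 24 h. The 7 limb mesenchyme marker genes checked summed to 387 to 621 FPKM (fragments scaled by transcript length and library size) in every library. At 18 h, replicate 3 of C59 stood apart from the other replicates, with a chi-square per degree of freedom of 45.5 and 38.1 against 4.21 between the other two, and the spread between replicates was larger (biological coefficient of variation 12.5%, against 5.41 to 7.52% at the other times).

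Long-chain fatty acids are burned in mitochondria after they are joined to carnitine. CPT1 makes acylcarnitines at the outer membrane and is the step at which entry is controlled, since malonyl-CoA, the first product of fatty acid synthesis, blocks it. The carrier encoded by *Slc25a20* moves acylcarnitines across the inner membrane, and CPT2 returns them to coenzyme A. The acyl-CoA dehydrogenases of *Acadvl*, *Acadl* and *Acadm*, for very long, long and medium chains, take the first step of each round of oxidation. The trifunctional protein, built of the α subunit of *Hadha* and the β subunit of *Hadhb*, takes the later steps for long chains. *Pdk4* encodes a kinase that shuts down pyruvate dehydrogenase and so spares glucose, and *Angptl4* a secreted inhibitor of lipoprotein lipase. PPAR receptors pair with RXR on DNA and switch on most of these genes in liver, heart and muscle when fatty acids are in supply. *Angptl4* and *Pdk4* also respond to glucocorticoids and to low oxygen in many tissues.

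The promoter windows of 8 members were found in the RefSeq table (GRCm38.p6), as 250 bases before each annotated start. *Angptl4* had no entry. Each window was searched on both strands for the core element that PPAR and RXR bind (AGGTCA), for the paired element (AGGTCANAGGTCA, which contains the core element), for a GC box (GGGCGG) and for a CCAAT box. The core element was in 3 of the 8 windows, those of *Cpt1a*, *Acadvl* and *Acadm*, and in 14% of all 32851 windows. The exact paired element was in 0.0335% of all windows and was not matched in the members' windows. GC boxes were in 5 of the 8 windows against 32.7% of all, and CCAAT boxes in 2 of 8 against 33.8%. The windows of *Hadha* and *Hadhb* overlap, and the GC box in the *Hadha* window is also a box of the *Hadhb* window, so it is counted in both. Of their 250 bases, 182 (*Hadha*) and 165 (*Hadhb*) lie in annotated exons. A match describes letters and is not a binding site. Shown are the 3 stretches with a core element. Their genes, *Cpt1a*, *Acadm* and *Acadvl*, were the members of the oxidation route with the largest differences at 12 h. They were picked with these values known, and a link between element and difference was not tested. The stretch between *Hadha* and *Hadhb* is shown because both genes are read outwards from it. Capitals mark the core elements, in either orientation, and the GC boxes, bases of annotated exons (GENCODE M21) are left out, and each stretch is written 5′ to 3′ on the strand of its gene, the last on the strand of *Hadhb*.
Cpt1a, chr19:3323051-3323284, plus strand: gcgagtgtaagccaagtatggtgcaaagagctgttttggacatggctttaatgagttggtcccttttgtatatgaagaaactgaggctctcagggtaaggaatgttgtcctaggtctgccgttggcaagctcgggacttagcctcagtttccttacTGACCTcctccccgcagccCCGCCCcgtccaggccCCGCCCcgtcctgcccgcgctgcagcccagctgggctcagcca
Acadm, chr3:153944644-153944893, minus strand: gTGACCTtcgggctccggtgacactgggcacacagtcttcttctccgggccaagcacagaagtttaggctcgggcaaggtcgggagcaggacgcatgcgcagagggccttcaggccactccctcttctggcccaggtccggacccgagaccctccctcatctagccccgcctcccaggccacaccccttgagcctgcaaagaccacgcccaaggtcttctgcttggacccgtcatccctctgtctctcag
Acadvl, chr11:70015429-70015678, minus strand: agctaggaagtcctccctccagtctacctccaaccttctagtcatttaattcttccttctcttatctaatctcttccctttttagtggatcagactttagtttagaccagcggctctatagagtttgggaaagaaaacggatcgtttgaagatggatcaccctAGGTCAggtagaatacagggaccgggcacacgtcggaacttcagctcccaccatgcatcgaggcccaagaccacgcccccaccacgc
Hadha and Hadhb, chr5:30155163-30155247: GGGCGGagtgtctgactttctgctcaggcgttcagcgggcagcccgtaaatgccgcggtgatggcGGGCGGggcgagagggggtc
The core element began 94 bases before the RefSeq start of *Cpt1a*, 249 before that of *Acadm* and 87 before that of *Acadvl*. The *Cpt1a* window lies inside the longer span of the gene in GENCODE M21, at position 3322334 to 3385733 of chromosome 19. *Hadha* (chromosome 5, 30118304 to 30155162, minus strand) and *Hadhb* (30155248 to 30184593, plus strand) are separated by 85 bases, and this stretch held 2 GC boxes.

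Levels of the 9 genes differed widely. In DMSO at 1 h the mean level in FPKM, which is scaled to transcript length, was 33.0 ± 2.3 for *Hadhb* and 30.8 ± 0.16 for *Hadha* (± SD, n = 3), followed by *Acadl* with 18.7, *Acadvl* with 13.2, *Slc25a20* with 10.1, *Acadm* with 9.21, *Angptl4* with 6.70 and *Cpt1a* with 4.04. *Pdk4* was the lowest, with 0.27 ± 0.05 FPKM and 26 to 35 counts in the 3 libraries. Only the neighbours *Slc25a20* and *Acadm* overlapped in their libraries in this order. In C59 at 12 h *Cpt1a* reached 12.2 ± 0.54 FPKM, a level that overlapped that of *Slc25a20* (13.0 ± 0.56 FPKM), and stood above *Angptl4* (9.37 ± 0.47 FPKM). Over the 10 groups the highest group mean was 3.18 times the lowest for *Cpt1a* and 2.72 times for *Angptl4*, and between 1.18 times (*Hadhb*) and 1.75 times (*Pdk4*) for the other 7.

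In short, *Cpt1a* was 2.21-fold higher in C59 than in DMSO at 12 h and 2.15-fold higher at 18 h, while *Angptl4* was lower at 1 and 6 h and higher at 12 and 18 h. The dehydrogenase genes *Acadm* and *Acadvl* were higher at 12 h by 1.40-fold and 1.33-fold, and the members of the trifunctional protein differed by 1.12-fold (*Hadha*) and 1.01-fold (*Hadhb*) at that time. At 24 h the largest difference among the 9 genes was 1.15-fold, that of *Pdk4*. The number of members past an adjusted p of 0.05 in the fit over all genes was 1 at 1 h (*Angptl4*, lower), 3 at 6 h (*Cpt1a* and *Acadl* higher, *Angptl4* lower), 6 at 12 h (all higher), 2 at 18 h (*Cpt1a* and *Angptl4*, higher) and 0 at 24 h with edgeR, with DESeq2 and at an unadjusted p. The background of all genes called higher and lower was 1.14% and 1.61% at 1 h, 8.20% and 11.4% at 6 h, 22.0% and 25.5% at 12 h, 3.46% and 3.62% at 18 h, and 2.88% and 3.56% at 24 h. Beyond a log2 fold change of 1 only *Cpt1a* passed, at 12 h and 18 h, where 4.95% and 1.29% of all genes did, against 0.283% at 1 h, 1.17% at 6 h and 0.819% at 24 h. The members being chosen with results known, nothing is read from these shares.

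**Figure D1:**
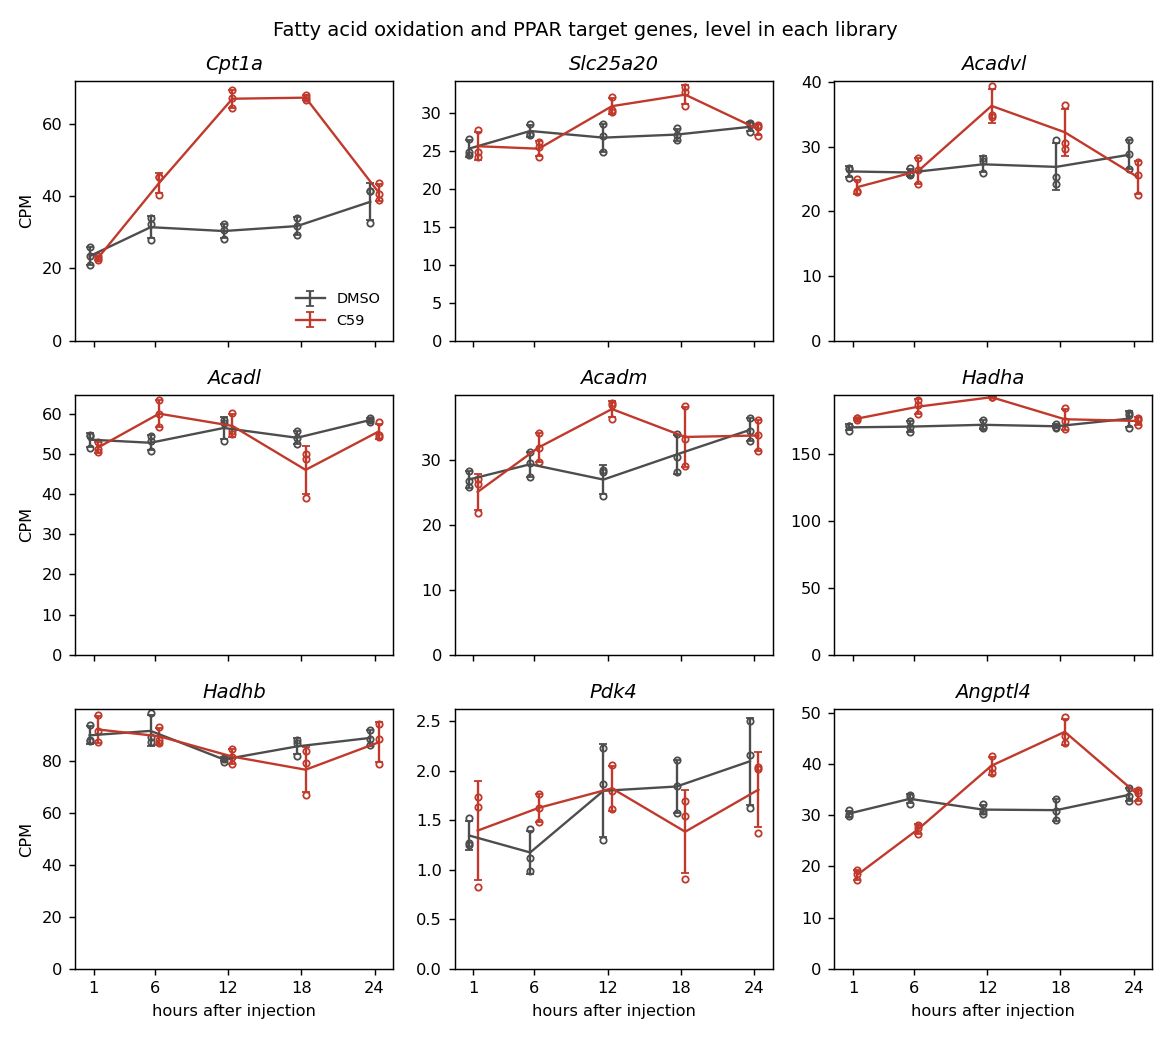
Level of each gene in CPM (counts scaled to library size, vertical axes from 0, scales differ) against hours after injection, for DMSO (grey) and C59 (red). Circles are single libraries, slightly offset, and lines join means with SD bars (n = 3). *Cpt1a* rose to 66.9 CPM in C59 at 12 h while DMSO was at 30.3 CPM, and *Angptl4* in C59 passed from below to above DMSO between 6 and 12 h.

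*Cpt1a* (ENSMUSG00000024900), the liver-type CPT1 gene, had 23.4, 20.8 and 25.9 CPM in the DMSO libraries at 1 h and 23.5, 22.8 and 22.4 CPM in C59. The C59 libraries lay within the range of DMSO. At 6 h DMSO had 33.9, 32.2 and 27.9 CPM and C59 40.3, 45.2 and 45.3 CPM, a difference of 0.46 ± 0.08 (log2, ± SE), with every C59 library above every DMSO library. At 12 h the gap was widest, with 30.5, 32.2 and 28.2 CPM in DMSO and 69.2, 67.0 and 64.3 CPM in C59 (log2 fold change 1.14 ± 0.06). It was as wide at 18 h within the error, with 31.8, 29.2 and 34.0 CPM in DMSO and 66.5, 67.9 and 67.0 CPM in C59 (log2 fold change 1.10 ± 0.10, and 1.11 without replicate 3 of C59). At 24 h the groups overlapped again, at 41.3, 32.4 and 41.5 CPM in DMSO and 40.5, 38.7 and 43.5 CPM in C59 (0.10 ± 0.10).

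The rest of the carnitine route moved less. *Slc25a20* had 24.8, 28.5 and 26.9 CPM in DMSO at 12 h and 32.1, 30.1 and 30.4 CPM in C59 (log2 fold change 0.21 ± 0.07), and 27.0, 26.4 and 28.0 CPM against 31.0, 33.5 and 32.8 CPM at 18 h (0.27 ± 0.09). The groups did not overlap at either time, and at 6 h C59 was the lower group by 0.13 ± 0.07. The value at 12 h passed the threshold with edgeR and not with DESeq2 (0.21), nor without replicate 1 or 3 of DMSO or of C59 (0.15 to 0.23). Of the genes of the route that were not used in the selection, *Cpt2* was not distinguishable between the groups at 12 h (29.5 ± 1.4 against 31.5 ± 2.1 CPM, log2 fold change 0.10 ± 0.07, edgeR adjusted p = 0.311). *Crat*, the carnitine acetyltransferase gene, rose by 0.25 ± 0.05 (edgeR adjusted p = 0.00205).

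The other CPT1 genes had lower mean levels per length than *Cpt1a* in each group. *Cpt1c*, the brain-type gene, which has little or no known activity in fatty acid oxidation, had 3.62 ± 0.19 FPKM in DMSO and 5.97 ± 0.49 FPKM in C59 at 12 h, and its counts rose by 0.49 ± 0.10 (edgeR adjusted p = 0.00236). At 18 h its log2 fold change was 0.20 ± 0.16 and the groups overlapped. *Cpt1b*, the muscle-type gene, had 0.46 ± 0.14 FPKM in DMSO and 0.78 ± 0.12 FPKM in C59 at 12 h, and its log2 fold change of 0.43 ± 0.22 did not pass the test. *Cpt1a* and *Cpt1c* libraries overlapped in FPKM in DMSO at 18 and 24 h, and in no other group.

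**Figure D2:**
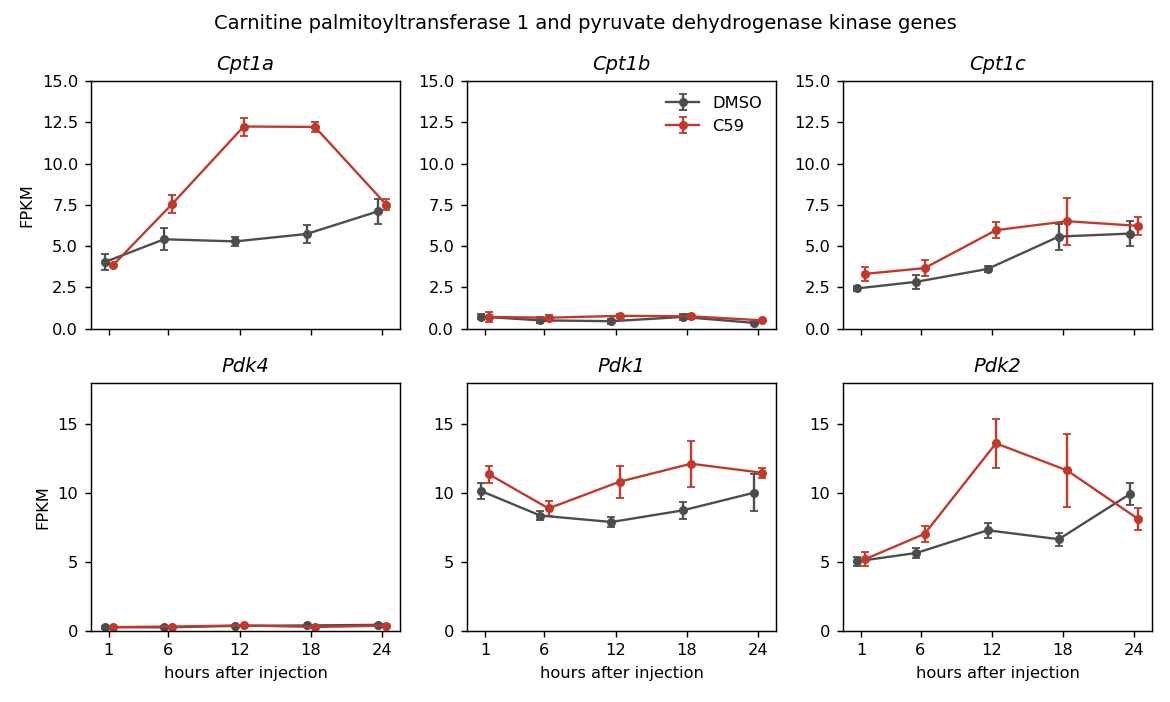
Mean level in FPKM (vertical axis from 0, the same within a row) against hours after injection for the 3 CPT1 genes and for 3 pyruvate dehydrogenase kinase genes, DMSO in grey and C59 in red, with SD bars (n = 3). *Cpt1a* in C59 reached 12.2 FPKM at 12 h, *Cpt1b* stayed below 1 FPKM on average in every group, and *Pdk4* stayed below 0.5 FPKM while *Pdk2* reached 13.6 FPKM in C59 at 12 h.

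The acyl-CoA dehydrogenase genes differed among themselves. *Acadm*, the medium-chain gene, had 28.3, 28.1 and 24.4 CPM in DMSO at 12 h and 38.7, 36.3 and 38.4 CPM in C59 (log2 fold change 0.49 ± 0.07). *Acadvl*, the very-long-chain gene, had 27.8, 25.9 and 28.2 CPM in DMSO and 39.3, 35.0 and 34.7 CPM in C59 at that time (0.41 ± 0.07). Both were separated from DMSO at 12 h and overlapped with it at 18 and 24 h. *Acadl*, the long-chain gene, had 53.3, 58.6 and 57.7 CPM in DMSO and 60.3, 55.7 and 55.1 CPM in C59 at 12 h (0.01 ± 0.06), so that its groups overlapped where those of the other two did not. Its groups did not overlap at 6 h and, with C59 lower, at 18 and 24 h (-0.07 ± 0.06 at 24 h). At 6 h it had 53.2, 50.8 and 54.5 CPM in DMSO and 63.5, 59.9 and 56.9 CPM in C59 (0.18 ± 0.06). Its call there was lost with DESeq2 (0.19) and with the spread shared over 30 libraries (0.19). It was also lost when any library but replicate 3 of C59 was left out (0.14 to 0.20). At 18 h *Acadl* was the lower in C59 by 0.21 ± 0.11, and by 0.11 without replicate 3 of C59, which held its lowest value, 39.2 CPM. *Acadvl* shares 2119 bases with *Dvl2* on the opposite strand, and the strand of counting was not stated, so that reads in the shared part cannot be assigned with certainty.

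*Hadha* and *Hadhb*, whose proteins form a single complex, had unlike values at 12 h. *Hadha* had 169.5, 175.6 and 170.6 CPM in DMSO and 192.4, 192.8 and 192.4 CPM in C59 (log2 fold change 0.16 ± 0.04). *Hadhb* had 79.6, 80.6 and 81.1 CPM in DMSO and 78.8, 84.3 and 81.5 CPM in C59 (0.02 ± 0.05). The 3 *Hadha* libraries of C59 lay above all those of DMSO, while the *Hadhb* groups overlapped. The difference between these 2 values was not tested. Per length, *Hadha* stood above *Hadhb* at 12 h in both groups without overlap, with 31.7 ± 0.99 against 29.7 ± 0.29 FPKM in DMSO and 37.2 ± 0.18 against 31.7 ± 0.71 FPKM in C59. The *Hadha* libraries of C59 also lay above all those of DMSO at 1 h (0.06 ± 0.04) and 6 h (0.12 ± 0.05). Neither value passed the threshold, and the *Hadhb* groups overlapped at both times. At 18 and 24 h the groups of both genes overlapped.

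*Pdk4* was close to the limit of what these libraries can measure, with 16 to 69 counts over the 30 libraries. At 6 h DMSO had 1.41, 0.99 and 1.12 CPM and C59 1.77, 1.62 and 1.49 CPM, which did not overlap, and the log2 fold change was 0.45 ± 0.27. At the other times the groups overlapped, with log2 fold changes between -0.39 ± 0.28 at 18 h and 0.06 ± 0.31 at 1 h. With standard errors of 0.25 to 0.31, a difference like that of *Acadm* was not detectable in *Pdk4* at this depth.

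The kinase genes with higher levels did change. *Pdk2* had 22.8 ± 1.8 CPM in DMSO and 40.5 ± 5.4 CPM in C59 at 12 h (± SD, n = 3), without overlap, and rose by 0.83 ± 0.10 (edgeR adjusted p = 7.67e-05). It rose by 0.30 ± 0.08 at 6 h (edgeR adjusted p = 0.0174) and by 0.75 ± 0.15 at 18 h (edgeR adjusted p = 0.0234), and at 24 h its log2 fold change was -0.31. The call at 6 h was lost without replicate 3 of DMSO or of C59 (0.28 and 0.26), and that at 18 h without any one of the 3 DMSO libraries or replicate 2 of C59 (0.72 to 0.82). *Pdk1* rose by 0.37 ± 0.08 at 12 h (edgeR adjusted p = 0.00369). In the same comparison the phosphatase gene *Pdp2*, which acts against the kinases, fell by 0.87 ± 0.07 (edgeR adjusted p = 5.72e-06). The subunit genes *Pdhb*, *Pdhx*, *Dlat* and *Dld* of the pyruvate dehydrogenase complex fell too, by 0.19 to 0.28, and the call of *Pdhb* was lost without replicate 1 or 3 of DMSO or replicate 2 or 3 of C59.

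*Angptl4* (chromosome 17, 33773750 to 33781830, minus strand) changed side during the time course. At 1 h it had 31.0, 29.8 and 30.2 CPM in DMSO and 19.2, 17.4 and 18.5 CPM in C59, a log2 fold change of -0.72 ± 0.07. At 6 h it had 32.2, 33.9 and 33.5 CPM in DMSO and 27.6, 26.2 and 28.1 CPM in C59 (-0.29 ± 0.06). At both times every C59 library lay below every DMSO library. At 12 h DMSO had 32.1, 30.8 and 30.3 CPM and C59 41.6, 39.2 and 38.3 CPM (0.35 ± 0.06), and at 18 h 33.3, 29.0 and 30.7 CPM stood against 44.2, 45.6 and 49.1 CPM (0.60 ± 0.10). C59 was then the higher group in every library. At 18 h the value was 0.55 without replicate 3 of C59, and the call was lost without replicate 2 or replicate 3 of DMSO (0.55 and 0.60). At 24 h the groups overlapped, with 35.4, 32.8 and 33.8 CPM in DMSO and 34.9, 32.7 and 34.4 CPM in C59 (0.01 ± 0.07). The DMSO level stayed between 29.0 and 35.4 CPM over all 15 libraries, so that the change of side lay in the C59 libraries, from a mean of 18.4 CPM at 1 h to 46.3 CPM at 18 h. Of all genes tested at the 5 times, 24.1% had groups that did not overlap and stood in opposite directions at different times.

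**Figure D3:**
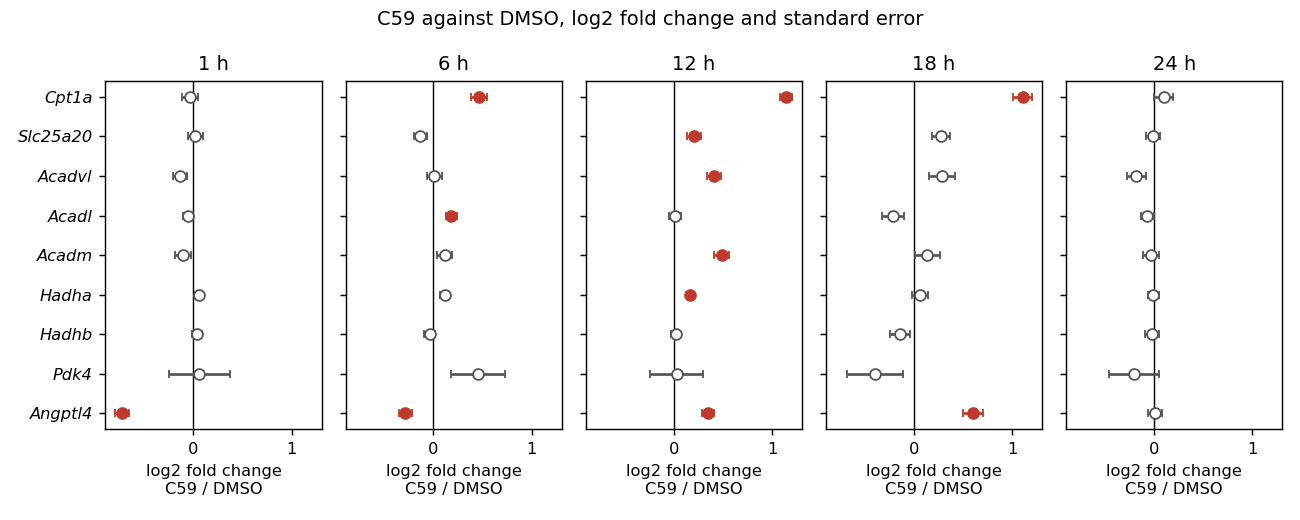
Log2 fold change of C59 against DMSO (horizontal axes, the same in every panel) for the 9 genes at each time, with the standard error from edgeR as bars. Filled red points passed an adjusted p of 0.05 over all genes, open points did not. *Cpt1a* stands furthest to the right at 12 h (1.14) and 18 h (1.10), and *Angptl4* passes from the left at 1 h (-0.72) to the right at 18 h (0.60).

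Markers of other cells and other responses moved at the same times, and their part in these values was not tested. At 12 h the 9 glucocorticoid response genes that were found summed to 197 to 220 FPKM in C59 against 136 to 146 FPKM in DMSO, with *Ddit4*, *Errfi1* and *Nfkbia* higher and *Fkbp5* lower among 9 tested. At 1 h the same sum was 102 to 109 FPKM in C59 and 112 to 120 FPKM in DMSO. The 10 genes of the hypoxia list summed to 320 to 425 FPKM in C59 and 475 to 509 FPKM in DMSO at 12 h, where 3 passed as higher and 2 as lower, among the latter the abundant *Ldha* (-0.65). The 7 endothelial markers summed to 90.7 to 103 FPKM in C59 against 69.3 to 79.1 FPKM in DMSO at 12 h (4 of 7 higher), the 7 macrophage markers to 17.8 to 18.9 against 9.43 to 10.6 FPKM (5 of 7 higher), and the 7 ectoderm markers to 81.0 to 109 against 73.8 to 78.2 FPKM (5 higher, 1 lower). Erythroid markers overlapped in their sums at 12 h (4374 to 6570 against 3316 to 4794 FPKM, 1 of 6 tested higher), and at 1 h, when *Angptl4* was lower, they summed to 3019 to 4360 FPKM in C59 and 2468 to 3160 FPKM in DMSO, with 2 of 6 tested higher. The 7 chondrogenic markers summed to 351 to 475 against 174 to 183 FPKM (6 of 7 higher), while the 7 limb mesenchyme markers summed to 387 to 398 against 572 to 602 FPKM (6 of 7 lower). The 7 muscle markers summed to 91.6 to 116 FPKM in C59 and 40.6 to 67.7 FPKM in DMSO (4 higher, 3 lower). Adipocyte markers summed to at most 4.58 FPKM in any library, with 1 of 6 passing the filter on low counts at 12 h, and the defining genes *Adipoq* and *Lep* had no count in the 6 libraries of that time. At 18 h the sums in C59 and DMSO were 78.1 to 89.3 against 74.3 to 78.0 FPKM for endothelial markers (0 of 7 called with edgeR, 2 at an unadjusted p below 0.05), 21.6 to 27.4 against 15.3 to 17.5 FPKM for macrophage markers (3 of 7 higher), 326 to 369 against 194 to 238 FPKM for chondrogenic markers (4 of 7 higher), and 74.6 to 89.1 against 65.1 to 72.1 FPKM for ectoderm markers (3 higher, 1 lower). The glucocorticoid response genes then summed to 164 to 207 FPKM in C59 against 132 to 148 FPKM in DMSO (1 of 9 higher), the limb mesenchyme markers to 463 to 495 against 520 to 560 FPKM (3 of 7 lower), and the hypoxia genes to 444 to 567 against 418 to 469 FPKM, where 3 of 10 were higher and no gene lower. Muscle markers overlapped in their sums at 18 h (1 higher, 3 lower).

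A list of 90 further genes of fatty acid transport, oxidation and control was tested over the same fits, to show the route around the 9 genes. At 12 h 79 of them could be tested, of which 27 were higher and 12 lower in C59 (background 22.0% and 25.5%), with a median log2 fold change of 0.12 against 0.017 for all genes. At 6 h 10 were higher and 4 lower of 79 (background 8.20% and 11.4%). At 18 h 2 were higher, *Acad10* and *Pdk2*, of 79 (background 3.46% higher and 3.62% lower). At 1 h (background 1.14% higher and 1.61% lower) and at 24 h (2.88% and 3.56%) 2 passed. At 1 h these were *Acaca* and *Acaa1a*, and at 24 h *Rxrg*, higher, and *Acsl6*, lower by 2.01 ± 0.31 (edgeR adjusted p = 0.00302). The call of *Rxrg* was lost without replicate 1 or 2 of DMSO or replicate 1 or 3 of C59. At 6 h the count was 8 without replicate 3 of DMSO or replicate 3 of C59, and 7 without replicate 1 of C59. At 18 h, where 20 genes had an unadjusted p below 0.05 with edgeR, the count was 13 without replicate 3 of C59, 1 without replicate 2 of DMSO and 0 without replicate 1 or 3 of DMSO or replicate 2 of C59, and at 24 h 1 without replicate 1 or 2 of DMSO or replicate 3 of C59.

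The 4 genes beyond a log2 fold change of 1 at 12 h, *Acaa1b*, *Acad12*, *Angptl1* and *Ppargc1a*, had low levels, and 2 genes passed both thresholds when replicate 1 of C59 was left out. Of all genes tested, 4.95% passed both thresholds at 12 h, so nothing is read from this number. *Acad12*, a member of the dehydrogenase family, rose by 1.64 ± 0.30 at 12 h (edgeR adjusted p = 0.00123) and by 1.01 ± 0.20 at 6 h (edgeR adjusted p = 0.00358), and had a log2 fold change of -0.01 at 18 h. *Acad10*, of the same family, rose by 1.02 ± 0.20 at 18 h (edgeR adjusted p = 0.0193). It was the 1 pathway gene past both thresholds at that time, where 1.29% of all genes passed both. None passed both without replicate 1 or 3 of DMSO or replicate 2 or 3 of C59. *Acaa1b*, a peroxisomal thiolase gene, rose by 1.86 ± 0.56 from a mean of 0.40 CPM (edgeR adjusted p = 0.0182), a call that was lost without replicate 1 or 2 of DMSO or replicate 1 of C59 (1.27 to 1.75). *Acaa1a* and *Acaa1b* are close copies, so that reads may have been split between them. *Acot1* and *Acot2*, acyl-CoA thioesterase genes and also close copies, rose by 0.56 ± 0.06 and 0.87 ± 0.10, and *Plin2*, a coat protein gene of lipid droplets, by 0.50 ± 0.05.

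In the oxidation lists the changes of abundant genes were modest. At 12 h, 22.0% of all genes were higher and 25.5% lower, shares to set beside the list counts of this paragraph. Of 15 further genes of mitochondrial oxidation 6 were higher and 1 lower at 12 h. Among them were *Etfdh* (0.39 ± 0.06), which passes electrons from the dehydrogenases to the respiratory chain, *Eci2* (0.29 ± 0.05) and *Acad9* (-0.20 ± 0.06). Of 10 peroxisomal genes 3 were higher, *Acaa1b*, the oxidase gene *Acox3* (0.48 ± 0.10) and *Crot* (0.18 ± 0.06), a carnitine acyltransferase gene. *Acaa1a* had -0.35 ± 0.14 and did not pass. The calls of *Acad9*, without replicate 1 of C59, and of *Crot*, without replicate 1 or 3 of DMSO or replicate 3 of C59, were lost. The higher call of *Acaa2* was lost without any library but replicate 1 of C59, and that of *Etfb* without any but replicate 3 of C59. That of *Acadsb* was lost without replicate 1 or 3 of DMSO or replicate 2 or 3 of C59. At 6 h *Acaa2* was lower in C59 (-0.33 to -0.27 without single libraries). Among uptake and activation genes 2 were higher and 3 lower of 9 tested. *Cd36*, a fatty acid transporter, rose by 0.96 ± 0.28 from 2.26 CPM (edgeR adjusted p = 0.0158), a call lost without replicate 1 or 3 of DMSO or replicate 3 of C59 (0.79 to 0.80), and *Fabp5*, a fatty acid binding protein gene, fell by 0.90 ± 0.09 from 155 CPM (edgeR adjusted p = 1.94e-05).

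The receptors themselves were measured too. *Ppard* was the PPAR gene with the highest level, 10.1 ± 0.69 FPKM in DMSO and 13.6 ± 0.55 FPKM in C59 at 12 h, and its counts rose by 0.32 ± 0.06 (edgeR adjusted p = 0.00188). *Ppara* had 0.17 ± 0.07 and 0.36 ± 0.14 FPKM at that time, with 11 to 45 counts and overlapping groups, and *Pparg* had 3 to 8 counts and did not pass the filter. *Ppargc1a*, a coactivator gene of mitochondrial programmes, rose by 1.08 ± 0.15 (edgeR adjusted p = 0.000229), from 6.94 to 7.81 CPM in DMSO to 12.4 to 18.8 CPM in C59. *Ppargc1b* had a log2 fold change of -0.11 ± 0.24 and *Rxrg* rose by 0.78 ± 0.17 (edgeR adjusted p = 0.00354). In all, 5 of the 10 receptor and cofactor genes tested were higher at 12 h, where 22.0% of all genes were higher and 25.5% lower.

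The genes that set malonyl-CoA, the blocker of CPT1, went in both directions at 12 h. *Acaca*, one of the acetyl-CoA carboxylase genes that make it, fell by 0.47 ± 0.05 (edgeR adjusted p = 4.23e-05), and *Acacb*, the other, rose by 0.44 ± 0.13 (edgeR adjusted p = 0.019). *Mlycd*, whose enzyme breaks it down, rose by 0.45 ± 0.13 (edgeR adjusted p = 0.0189). The call of *Acacb* was lost without replicate 2 or 3 of DMSO or replicate 2 of C59, and that of *Mlycd* without replicate 2 of DMSO or replicate 1 or 2 of C59. *Prkaa2*, a catalytic subunit gene of the kinase AMPK, had 0.60 ± 0.25 and did not pass. Around *Angptl4*, in the lipoprotein lipase list, *Angptl1* rose 2.46-fold (SE 0.34 on the log2 scale) from 3.47 CPM (edgeR adjusted p = 0.00883) and *Angptl2* by 0.26 ± 0.05 (edgeR adjusted p = 0.000958), and *Angptl6* had -0.10 ± 0.46.

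**Figure D4:**
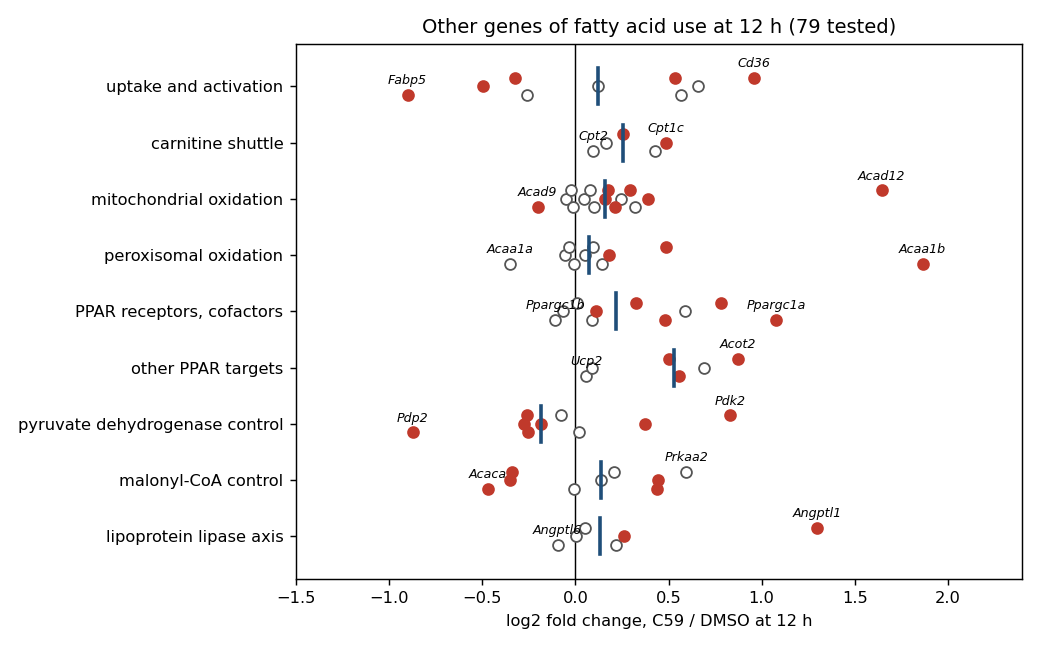
Log2 fold change of C59 against DMSO at 12 h (horizontal axis) for the 79 tested genes of the 9 pathway lists (rows, points spread vertically for legibility only). Filled red points passed an adjusted p of 0.05 with edgeR, blue bars are list medians and the lowest and highest gene of each list are named. The median was 0.53 for other PPAR targets (6 of 14 listed genes tested) and -0.19 for pyruvate dehydrogenase control (9 tested). That of all genes was 0.017.

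The genes were then followed through normal development, between DMSO at 1 h and at 24 h, a comparison that does not involve C59, although the members were chosen with these libraries known and it is not independent evidence. Of the 9 genes 5 were higher at 24 h, where 30.2% of all genes were higher and 29.2% lower. *Cpt1a* rose by 0.71 ± 0.10, from 23.3 to 38.4 CPM (edgeR adjusted p = 3.23e-05), and *Acadm* by 0.36 ± 0.07 (edgeR adjusted p = 0.000561). *Pdk4* (0.64 ± 0.25, edgeR adjusted p = 0.042), *Angptl4* (0.16 ± 0.07, edgeR adjusted p = 0.0435) and *Acadl* (0.13 ± 0.05, edgeR adjusted p = 0.0422) passed narrowly, and all 3 were lost with DESeq2, which called 2 members. *Hadhb* had -0.01 ± 0.05 and *Hadha* 0.05 ± 0.04.

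In C59 the same interval gave 3 members higher, with 28.4% of all genes higher and 25.7% lower. *Cpt1a* rose by 0.85 ± 0.08, *Angptl4* by 0.90 ± 0.08 and *Acadm* by 0.45 ± 0.10. The members were chosen with these libraries known, so the values in C59 and between neighbouring times are not independent evidence. The value of *Angptl4* starts from the low level of C59 at 1 h, 18.4 CPM, and ends at 34.0 CPM. Between neighbouring times in DMSO, 1 of the members passed, *Cpt1a* from 1 to 6 h (0.42 ± 0.11, edgeR adjusted p = 0.0216), where 6.47% of all genes passed in either direction. The shares of all genes for the later steps were 4.41% from 6 to 12 h, 14.0% from 12 to 18 h and 12.0% from 18 to 24 h.

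Of the 90 further genes, 25 were higher and 17 lower of 81 tested at 24 h in DMSO (background 30.2% and 29.2%). Of all genes, 12.0% passed beyond a log2 fold change of 1 in either direction, a share that a count of rises alone cannot be set against. A total of 8 of the further genes rose beyond it. They included the fatty acid binding protein gene *Fabp4* (2.64 ± 0.69, from 0.09 to 0.63 CPM) and the receptor genes *Rxrg* (2.87 ± 0.17) and *Ppara* (1.86 ± 0.41, from 0.43 to 1.53 CPM). *Pdk2* rose by 0.92 ± 0.09 and *Cpt1c* by 0.96 ± 0.10, whereas *Cpt2* fell by 0.34 ± 0.06 and *Cpt1b* by 0.73 ± 0.20.

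Over the 30 libraries, log2 levels of *Cpt1a* and *Angptl4* had a Pearson r of 0.75, and *Pdk4* had r of 0.18 with *Cpt1a* and 0.10 with *Angptl4*. The genes most like *Cpt1a* among 12540 with a mean of at least 1 CPM were *Enpp5* (r = 0.94), *Tom1l2* (0.94) and *Peli2* (0.93). Those most like *Angptl4* were *Zfp672* (0.87), *Cep170b* (0.86) and *Vgll4* (0.86), and those most like *Pdk4* were *Il1rl2* (0.76), *9330159F19Rik* (0.72) and *Oxr1* (0.71). These are descriptions over libraries that share groups and time points, and the low counts of *Pdk4* limit its values.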

How the data were processed

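Groups (10 of 3 libraries) came from the sample labels. Reads had been trimmed by the authors (Cutadapt 1.16) and mapped to mm10 (STAR 2.7.0e, custom annotation), and the authors deposited raw gene counts, not normalized. The deposited FPKM values came from the authors' unstranded Cufflinks 2.2.1 run. The strand of counting is not given in the sources used here. The count table holds no genes of chromosomes X, Y and M.

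Counts of protein-coding genes (GENCODE M21) were tested per time point on its 6 libraries by the quasi-likelihood test of edgeR 4.0.16 (R 4.3.3, two-sided, TMM factors, filterByExpr with minimum count 10 and minimum total 15, Benjamini-Hochberg adjustment over all genes tested). Neighbouring times in DMSO were tested in 1 fit of 15 libraries. Standard errors were derived from the F statistic. CPM are counts scaled to the TMM-corrected library size. Replicates were bud pairs of separate embryos. The steps were tested on simulated data.

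The members and the gene lists were chosen with earlier results of these data known. Named genes were all members, the highest and lowest gene of each pathway list at 12 h, pathway genes called beyond a log2 fold change of 1 with groups that did not overlap, a few receptors and paralogues, *Axin2*, and the 3 genes most like *Cpt1a*, *Angptl4* and *Pdk4*. Further pathway genes and genes of response and marker lists were named after their values were seen. *Tsc22d3* was listed but not found. Some genes of these pathways are not reported here. Alternatives were DESeq2 1.42.0, other scaling and filters, limma 3.58.1 on log2(FPKM + 1) and log2(FPKM + 0.1), a shared spread over 30 libraries, the replicate block and leaving out each replicate.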

Additional observations from a re-analysis of the deposited data

Results flagged for a closer look

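Of the 9 members, *Angptl4*, *Acadl*, *Acadvl* and *Slc25a20* had all C59 libraries on one side of all DMSO libraries at one time and on the other side at another. The same held for 24.1% of the 12774 genes tested at all 5 times, so that nothing is read from the number of members. The difference was not tested, and it compares groups of 3. *Angptl4* had log2 fold changes of -0.72 at 1 h and -0.29 at 6 h, and of 0.35 at 12 h and 0.60 at 18 h. *Acadl* was higher at 6 h (0.18) and lower at 18 h (-0.21) and 24 h (-0.067). *Acadvl* was lower at 1 h (-0.14) and higher at 12 h (0.41). *Slc25a20* was lower at 6 h (-0.13) and higher at 12 h (0.21) and 18 h (0.27). Of these values, those of *Angptl4* at all 4 times, *Acadl* at 6 h, and *Acadvl* and *Slc25a20* at 12 h passed the threshold over all genes.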

How the results depend on the processing

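Of 1136 recomputed values, 986 kept their direction and their side of the threshold, or, for counts, lay within 1.5 times. *Cpt1a* at 6, 12 and 18 h and *Angptl4* at 1, 6 and 12 h passed under every alternative run. These runs reuse the libraries known at selection, so they describe dependence on processing and are not independent evidence. The cause of the changes below was not tested. Members called at 18 h were 5 with a spread shared over 30 libraries and 1 to 3 when single libraries were left out. Members called in DMSO, 24 h against 1 h, were 2 with DESeq2, 3 without a filter, 2 over all genes, 8 with limma at either pseudocount and 2 to 4 without single libraries. In C59 they were 6 with limma at either pseudocount. The count of other pathway genes was 0 with the shared spread and 1 with limma at 1 h. At 6 h it was 8 with the shared spread, 5 and 6 with limma, and 7 to 13 without single libraries. At 18 h it was 9 with DESeq2, 5 with upper-quartile factors, 4 without a filter, 5 at a mean of 1 CPM, 23 with the shared spread and 0 to 13 without single libraries. At 24 h it was 1 with limma and 1 to 3 without single libraries. Beyond a log2 fold change of 1, limma on log2(FPKM + 1) gave 1 gene at 12 h and 0 at 6, 18 and 24 h. Leaving out single libraries gave 0 to 1 genes at 6 h, 2 to 5 genes at 12 h and 0 to 1 genes at 18 h. Values near 0 changed sign. With limma at the 2 pseudocounts these were *Pdk4* (-0.00633 and -0.04) and *Slc25a20* (-0.018 and -0.020) at 1 h, *Acadm* (0.022 and 0.023) and *Hadha* (0.016 and 0.016) at 24 h, and *Hadhb* in DMSO, 24 h against 1 h (0.066 and 0.068). With upper-quartile factors they were *Hadha* (0.00432) and *Slc25a20* (0.0012) at 24 h and *Hadhb* in development (0.014). Without single libraries the ranges were, at 1 h, *Cpt1a* -0.11 to 0.047, *Pdk4* -0.11 to 0.32, *Hadhb* -0.0086 to 0.075 and *Slc25a20* -0.044 to 0.058, at 6 h, *Acadvl* -0.044 to 0.070 and *Hadhb* -0.078 to 0.019, at 12 h, *Pdk4* -0.17 to 0.21 and *Acadl* -0.030 to 0.047, at 24 h, *Cpt1a* -0.010 to 0.16, *Angptl4* -0.018 to 0.040, *Acadm* -0.077 to 0.028, *Hadha* -0.034 to 0.011, *Hadhb* -0.078 to 0.039 and *Slc25a20* -0.028 to 0.015, and *Hadhb* in development -0.044 to 0.018. Samples of the same replicate number did not deviate together (correlations -0.144 to 0.105 over 15 pairs), so the numbers name the samples only. With the replicate block, members called in DMSO, 24 h against 1 h, were 2 in place of 5, and other pathway genes at 6 h were 9 in place of 14. The call of *Acadl* at 6 h was lost (0.18), as were those of *Pdk4*, *Angptl4* and *Acadl* in DMSO, and no other member's call in C59 against DMSO or in DMSO over time from 1 to 24 h changed with the block.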
